A study of Homo sapiens with 9 samples.

Results

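The RNAs described here are long intergenic noncoding RNAs (LINC RNAs) that carry only a number as their name. They were chosen by their mean count, as the genes of the count table whose symbol is LINC followed by digits and whose mean over the 9 libraries is at least 20 estimated counts. This rule kept 143 of 2226 numbered LINC genes, out of 56541 genes in the table, and 237 of the 2226 had any count. Their overall abundance is therefore a description and not a result. Just inside the limit lay LINC02766, LINC02210 and LINC01816, with means of 20.4, 21.2 and 21.4 counts. Just outside it lay LINC02974, LINC02642 and LINC02569, with 19.9, 18.7 and 17.

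The cells were MOLM-13, an established human acute myeloid leukaemia line whose labels give peripheral blood as the source. Every group had been given doxycycline at 200 ng/uL for 4 days, and each held 3 libraries. The shCONTROL group carried a control hairpin, the shBCLAF1 group a hairpin directed at BCLAF1, and both were measured by RNA-seq on 2000000 cells per sample. The RIP group held RNA that came down with BCLAF1 from 15000000 shCONTROL cells per sample. The labels name 1 hairpin per group and no precipitation without the antibody, so the RIP is compared with the RNA-seq of shCONTROL cells. They do not say whether replicates came from separate cultures, so p-values measure the spread between these libraries, which may be technical.

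Intergenic noncoding RNAs are transcribed by RNA polymerase II from their own promoters, and most are capped, spliced and polyadenylated as mRNAs are. Many stay in the nucleus, where some act on neighbouring genes, while others are exported or code for short peptides. A number in place of a name means that no function was known when the gene was registered. BCLAF1 is a nuclear RNA-binding protein with arginine-serine-rich stretches, related to THRAP3 and known for its part in mRNA splicing and export.

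Library totals ran from 25819144 to 36635268 estimated counts. The floor used here, 3 counts, equalled 0.0819 to 0.116 CPM (counts per 1000000 counts of the library) before scaling. All other CPM, and the floor behind the bounds, were scaled by TMM as described under processing. Floors cover counting error only. BCLAF1 held 325, 328 and 312 CPM in shCONTROL libraries, 115, 125 and 99.9 CPM in shBCLAF1 libraries and 1147, 1059 and 1033 CPM in RIP libraries. The log2 fold changes were -1.50 (SE 0.08, adjusted p 2.06e-04) and 1.74 (SE 0.10, adjusted p 2.19e-04). All 10 myeloid markers checked were above 1 CPM in all 9 libraries. All 4 erythroid and all 4 fibroblast markers stood at 0 throughout, as did 3 of 5 T cell, 2 of 4 B cell, 2 of 3 megakaryocyte and 3 of 5 epithelial markers. CD3D and TRAC of the T cell list held 11.4 and 25.6 CPM in shCONTROL and counts in all 9 libraries, and TRAC was lower after knock-down (log2 fold change -0.97, adjusted p 0.00178). KRT18 of the epithelial list held 1.01 CPM and was higher (1.07, adjusted p 0.00365).

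Low values of the members were split between 0 and well above it. Of their 1287 values, 81 were 0, none lay between 1 and 5, and the smallest value above 0 was 6. A total of 106 members were above 0 in all 9 libraries and 37 had a 0 in at least 1. Within a group a 0 stood beside 20 or more counts for 15 members in shCONTROL, 13 with the BCLAF1 hairpin and 13 in the RIP. LINC00852 shows this most: shBCLAF1 held 0, 225 and 267 counts, the RIP 91, 107 and 0, and shCONTROL 182, 181 and 206. LINC01355 held 212, 80 and 0 counts in the RIP, LINC00847 held 141, 158 and 0 in shCONTROL, and LINC00339 held 0, 72 and 102 there. A 0 in these values therefore does not show that an RNA was absent. Where a gene was above 0 in all 3 libraries, replicates lay closer together, with a median coefficient of variation of 10.7% over 124 members of the shCONTROL group, 12.6% over 128 of the shBCLAF1 group and 20.6% over 124 of the RIP group.

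The members together took 0.134% ± 0.00532 of each shCONTROL library, 0.135% ± 0.00576 of each shBCLAF1 library and 0.119% ± 0.00968 of each RIP library (SD, n = 3). LINC00926 alone accounted for 11.8% to 12.7% of these counts under the control hairpin, 21.2% to 22.3% under the BCLAF1 hairpin and 12.1% to 14.8% in the RIP. Without it the shares were 0.118% ± 0.0043, 0.106% ± 0.00388 and 0.103% ± 0.00689. The shCONTROL and shBCLAF1 totals thus overlapped with LINC00926 and lay apart without it, and no test was made on these sums.

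The name intergenic was checked against the RefSeq annotation of GRCh38.p14, which matched 140 of the 143 members by symbol. In that annotation 16 of the 140 spans overlapped a protein-coding gene on either strand and 124 did not. Of the 10 overlaps for which the strand of both genes was listed, 3 were on the same strand. LINC02210 is the clearest of these, because the read-through gene LINC02210-CRHR1 starts within it, so its counts cannot be assigned with certainty. The 124 others lay a median of 19250 bases from the nearest protein-coding gene, 25 of them within 5 kb and 34 beyond 50 kb. Spans ran from 561 to 384069 bases with a median of 8446, and none held an annotated miRNA hairpin.

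Promoter sequence, from 250 bases before to 50 after the annotated start, was listed by RefSeq for 95 members in 105 windows. Their median GC content was 59% with 14 CG dinucleotides, against 58.7% and 14 over all 35116 promoters in the table, 62.3% and 21 at protein-coding genes and 50% and 5 at all lncRNA genes. Each of 5 motifs was searched on both strands, and none of them overlaps another in its letters. The PU.1 core GAGGAAG occurred in 15.2% of member windows and 13.6% of all windows, the TATA box TATAAA in 11.4% and 11.5%, and the E-box CACGTG in 8.57% and 7.26%. The ATF4 element TGATGNAA occurred in 4.76% and 3.62%, and the C/EBP palindrome TTGCGCAA in 0 of 105 windows and 0.151% of all. The member promoters were close to the whole table in each of these measures.

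Counts are not scaled for transcript length, so they rank the members by how many counts they held and not by level. The 8 that held most in shCONTROL were LINC00926, LINC03040, LINC00662, LINC00342, LINC02987, LINC02910, LINC00938 and LINC01709, from 161 ± 10.1 CPM down to 30.9 ± 2.08 (SD, n = 3 each). Of these, 2 rose and 4 fell after knock-down, as described next. LINC02910, at 36.4 ± 0.851, 35.2 ± 1.33 and 26.2 ± 3.78 CPM in the order shCONTROL, shBCLAF1, RIP, was called in neither comparison. Its RIP log2 fold change of -0.48 (adjusted p 0.0195) missed only the minimum size of 1 that a RIP call also needs. LINC00938, beside ARID2, was not called either, at 34.5 ± 0.926, 33.9 ± 0.73 and 30 ± 4.28 CPM. LINC03088 (knock-down adjusted p 0.318) also missed a RIP call by that minimum alone, with a log2 fold change of 0.81 and an adjusted p of 0.00299. LINC00174 passed in neither (knock-down adjusted p 0.509, RIP log2 fold change 0.49, adjusted p 0.102).

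The first comparison asks which LINC RNAs change when BCLAF1 is depleted. Both directions were seen: LINC00926 and LINC02169 were among those that rose, LINC00662, LINC00513 and LINC00899 among those that fell. In all, 20 members were higher and 21 lower in shBCLAF1 among the 140 tested, which is 29.3% of them (edgeR quasi-likelihood test, adjusted over all 16961 genes tested). Over all genes 32.3% were called, 15.5% higher and 16.9% lower, so the share among the members was near the background. Their median log2 fold change was 0.04, against 0.02 over all genes, and the quartiles of the members lay at -0.34 and 0.43. The 3 libraries of one group lay apart from the 3 of the other in 67 of the 140 members tested and in 8357 of all 16961 genes. A change of 1 or more on the log2 scale was reached by 3 higher and 6 lower members. LINC01144, LINC02801 and LINC02067 held too few RNA-seq counts to be tested. A high group can carry a gene past the mean of 20. The 131 members with such a mean in shCONTROL alone were therefore also counted, and 18 of them were higher and 21 lower. This choice keeps genes that are high in shCONTROL, so it bears on the higher members and cannot check the lower ones.

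**Figure D1:**
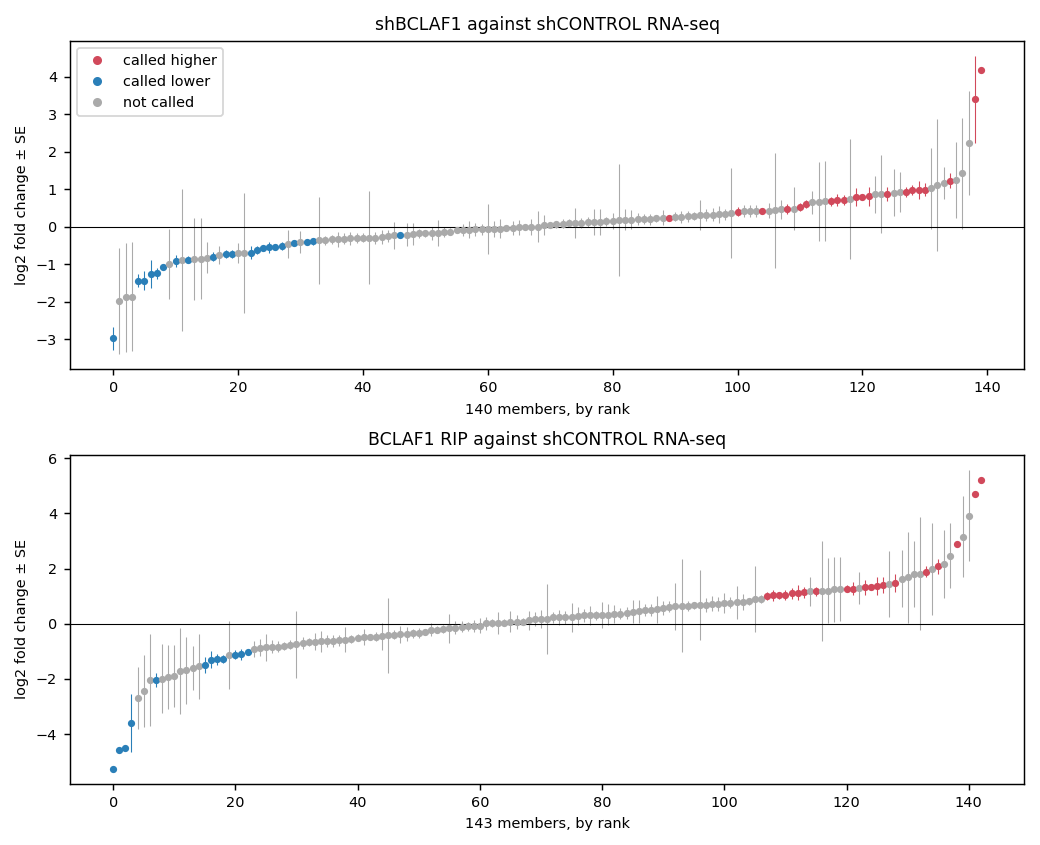
Log2 fold change with its standard error (y axis) of each member, ordered by size (x axis), after knock-down (top, 140 members) and in the RIP (bottom, 143 members). Red points were called higher, blue points lower and grey points not called. Members off in 1 group have no error bar and their fitted change is no bound. Long grey error bars belong mostly to members with a 0 in 1 or 2 libraries.

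LINC00926 (ENSG00000247982; chr15:57300365-57307769) held 150.2, 165 and 169.6 CPM with the control hairpin and 263, 288 and 289 CPM with the BCLAF1 hairpin. The groups lay far apart, for a log2 change of 0.80 (SE 0.06, adjusted p 4.71e-04), with 0.76 to 0.84 when 1 library was left out. It is best known as an RNA of B cells. Of the B cell markers, MS4A1 and PAX5 stood at 0 in all 9 libraries, and the 4 markers summed to 2.86 to 3.32 CPM in shCONTROL and 2.29 to 2.8 in shBCLAF1. Of the 10 myeloid markers, LYZ, the lysozyme of monocytes and granulocytes, went from 729 to 2637 CPM, and CD33 and SPI1 were also higher (log2 fold changes 0.34 and 0.37). FLT3, HOXA9 and MEIS1 were lower (-0.18, -0.43 and -0.86), and the other 4 were not called. The part of LYZ and of these markers in the LINC00926 change was not tested. In bulk RNA, more cells of a type and more RNA per cell cannot be told apart. The nearest coding gene, TCF12, encodes an E protein and did not pass (log2 fold change -0.12, adjusted p 0.13).

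LINC02169 (chr16:54245544-54270879), near IRX3, had the highest fold change among called members above 0 in all 6 libraries. It held 2.38, 1.69 and 2.22 CPM in shCONTROL and 5.47, 5.31 and 4.12 in shBCLAF1, for a rise of 1.23 on the log2 scale (SE 0.19, adjusted p 0.00425). LINC00477 rose from 1.67 ± 0.146 to 3.37 ± 0.534 CPM (log2 fold change 0.99, adjusted p 0.00607), and LINC01480 from 3.02 ± 0.299 to 5.96 ± 0.444 (0.97, adjusted p 0.00233). LINC03023 rose from 1.89 ± 0.209 to 3.64 ± 0.172 CPM (0.93, adjusted p 0.00337), LINC02933 from 2.35 ± 0.189 to 3.91 ± 0.324 (0.72, adjusted p 0.00768) and LINC02212 from 2.57 ± 0.217 to 4.16 ± 0.122 (0.68, adjusted p 0.00667). These 6 RNAs kept their calls when any 1 library was left out. In a single fit of all 9 libraries LINC03023 (adjusted p 0.0641), LINC02212 (0.0533) and LINC02933 (0.695) were no longer called. LINC03019 was at 0 in every shCONTROL library and held 36, 38 and 32 counts in shBCLAF1, or 0.941 ± 0.066 CPM (SD, n = 3). Against the floor of 3 counts per library it was at least 11-fold higher, if its zeros stand for 3 counts or fewer. It reached the mean of 20 only through shBCLAF1 and the RIP, so this difference was set by the choice of members and is a description.

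Another group of risen members rested on fewer libraries. LINC00467, from which a short mitochondrial peptide has been reported, held 0.793, 1.07 and 0.973 CPM in shCONTROL and 2.21, 2.09 and 1.45 in shBCLAF1 (log2 fold change 0.98, adjusted p 0.0193). Its call was lost without shCONTROL replicate 1 (adjusted p 0.0597) or 3 (0.056), and without shBCLAF1 replicate 1 (0.0629) or 2 (0.0676). LINC02018 (0.87, adjusted p 0.0134) lost its call without shBCLAF1 replicate 2 (0.0548) and in a single fit of all 9 libraries (0.634), and LINC01547 (0.70, adjusted p 0.018) without shCONTROL replicate 3 (0.0523). LINC02916 (0.81, adjusted p 0.0451), LINC01012 (0.78, adjusted p 0.0488) and LINC02987 (0.24, adjusted p 0.0379) each lost it in 5 of the 6 fits that left out 1 library. The exception was shBCLAF1 replicate 1 for LINC02916 and LINC02987 and shCONTROL replicate 1 for LINC01012, and adjusted p reached 0.133, 0.134 and 0.123. The single fit of all 9 gave 0.199 for LINC02916, 0.289 for LINC01012 and 0.21 for LINC02987. LINC03078, outside the naming rule because of its zeros, held 11, 0 and 0 counts in shCONTROL and 59, 63 and 61 in shBCLAF1. Its adjusted p of 0.0438 rose to 0.0955 to 0.119 without any library other than shCONTROL replicate 1, and was 0.146 in the fit of all 9. It too reached the mean of 20 only through the group where it is high.

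Among the RNAs that fell, LINC00513 (ENSG00000233559; chr7:130913464-130921946) changed most. It has been described as a promoter of interferon signalling. Its level was 7.7, 9.18 and 8.7 CPM in shCONTROL and 0.762, 0.793 and 1.55 in shBCLAF1, which gave -2.97 on the log2 scale (SE 0.31, adjusted p 9.89e-04), and -3.36 to -2.80 with 1 library left out. A single fit of all 9 libraries gave an adjusted p of 0.0714. LINC00662 (ENSG00000261824; chr19:27790493-27793940), studied in several cancers, held 103, 113 and 108 CPM in shCONTROL and 51.4, 55 and 48.1 in shBCLAF1. On the log2 scale this was -1.06 (SE 0.07, adjusted p 2.55e-04), and no shBCLAF1 library came near a shCONTROL library. LINC00899, known for its effect on the length of mitosis, went from 16.6 ± 1.22 to 8.94 ± 0.552 CPM (log2 fold change -0.88, adjusted p 0.00111).

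Several others fell with steady values. LINC01686 held 2.43, 2.66 and 1.86 CPM in shCONTROL and 0.867, 0.978 and 0.6 in shBCLAF1 (-1.44 on the log2 scale, SE 0.25, adjusted p 0.00608). LINC03073 went from 5.71 ± 0.953 to 2.06 ± 0.216 CPM (-1.44, adjusted p 0.00168), and LINC01169 from 3.28 ± 0.367 to 1.35 ± 0.0828 (-1.24, adjusted p 0.00161). LINC02913, LINC02970, LINC01355 and LINC03021 had log2 fold changes of -0.91, -0.80, -0.73 and -0.72, with adjusted p of 0.00585, 0.00371, 0.0047 and 0.00313. Each of these 7 kept its call in all 6 fits with 1 library left out, while a single fit of all 9 libraries gave adjusted p of 0.492 for LINC01169 and 0.766 for LINC01355. LINC01588 was less steady, at 5.63, 7.75 and 5.42 CPM against 2.39, 3.94 and 1.42 (-1.26, adjusted p 0.0465), and kept its call only without shBCLAF1 replicate 2 (adjusted p 0.062 to 0.135 in the other 5 fits). LINC00963, known from prostate cancer cells, had a log2 fold change of -0.69 (adjusted p 0.0293) and lost its call without shCONTROL replicate 1 (0.0869) or 2 (0.0827) and without shBCLAF1 replicate 1 (0.0658) or 2 (0.0841), and in the fit of all 9 (0.127).

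LINC00342, LINC03040 and LINC01709 are 3 of the 8 members with most counts, and their changes were smaller. LINC01709 fell from 30.9 ± 2.08 to 20.1 ± 2.7 CPM (log2 fold change -0.62, adjusted p 0.00795). LINC03040 went from 122 ± 13 to 92.1 ± 4.73 CPM (-0.40, adjusted p 0.0149), a call lost without shBCLAF1 replicate 2 (0.0542) and in a single fit of all 9 libraries (0.131). LINC00342 went from 56 ± 2.37 to 48.4 ± 1.77 CPM (-0.21, adjusted p 0.0295). That call was lost without shCONTROL replicate 2 (0.0909) or 3 (0.0963), without shBCLAF1 replicate 1 (0.0899) or 3 (0.0678), and when library totals replaced TMM scaling (0.0702) or all 9 libraries were fitted together (0.622). Smaller changes were also called in 5 further members that rose (LINC00528, LINC00997, LINC02724, LINC02982 and LINC01278), with log2 fold changes of 0.40 to 0.61. Of these, LINC01278 lost its call without any 1 of the 6 libraries (adjusted p 0.0616 to 0.128), and LINC02724 without any library except shCONTROL replicate 2 (0.0665 to 0.116). In a single fit of all 9 libraries only LINC02982 of the 5 was called, with adjusted p of 0.0504 for LINC00528 and 0.796 for LINC00997. Another 6 fell, from -0.58 to -0.39: LINC00641, LINC01138, LINC00900, LINC01176, LINC01572 and LINC01410. LINC01138 lost its call without shCONTROL replicate 1 (0.0648) or 3 (0.0826), LINC01176 without shCONTROL replicate 1 (0.0514), and LINC01410 without shCONTROL replicate 3 (0.0604) or shBCLAF1 replicate 2 (0.0672). LINC01176 and LINC01410 were not called in the single fit of all 9 either (0.725 and 0.168).

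**Figure D2:**
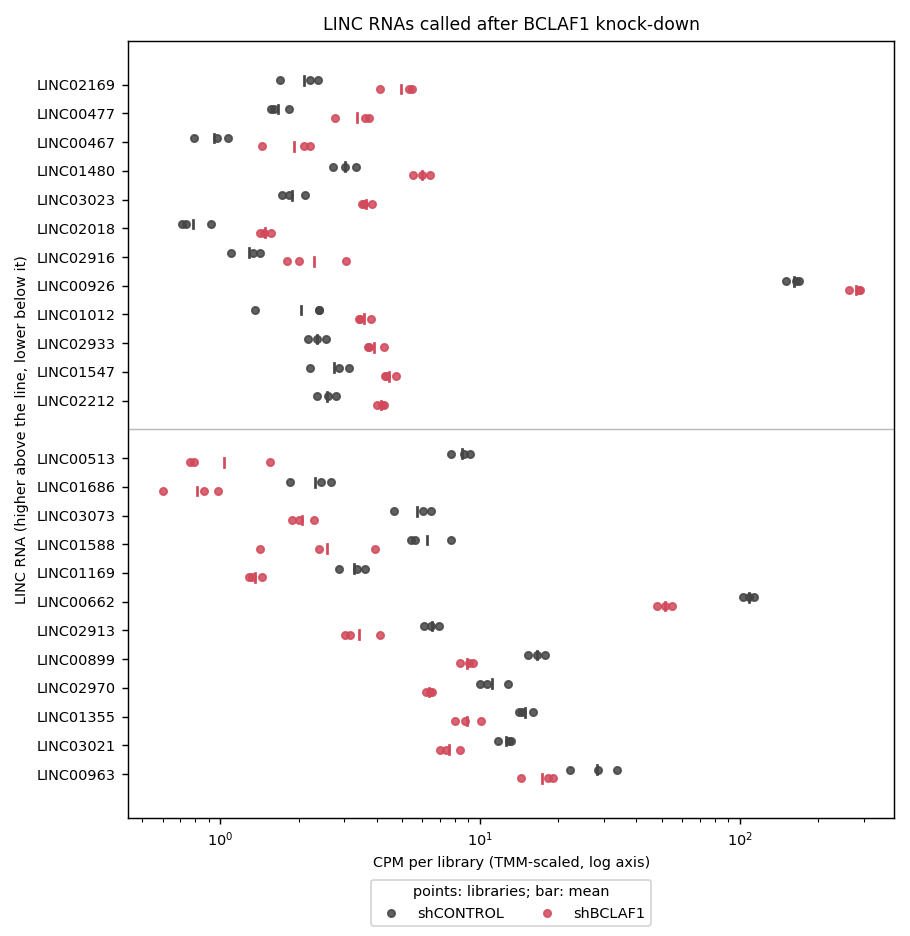
CPM in each shCONTROL (grey) and shBCLAF1 (red) library, on a log axis, for 12 risen and 12 fallen LINC RNAs. They are those with the largest changes among called members above 0 in all 6 libraries. Points are single libraries and short bars are group means. The 2 groups lie apart in every row, which the naming rule required, and most widely for LINC00513.

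LINC00662 and LINC02987 are neighbours on chromosome 19, transcribed on opposite strands, and differed in direction. LINC02987 (chr19:27793431-28024969) held 38.8, 37.2 and 36 CPM in shCONTROL and 40.7, 44.3 and 47.2 in shBCLAF1, the small and unsteady rise given above. Their annotated spans overlap by 510 bases, and the start of LINC00662 at 27793940 lies 45 bases from a start of LINC02987 at 27793895. The 2 promoter windows are shown because they share sequence. The capitals mark the 54 bases common to both, each read on its own strand, in chr19:27793891-27794190 on the minus strand and chr19:27793645-27793944 on the plus strand of GRCh38.p14. The sources do not say whether reads were counted by strand, so reads from the overlap cannot be assigned with certainty.
LINC00662: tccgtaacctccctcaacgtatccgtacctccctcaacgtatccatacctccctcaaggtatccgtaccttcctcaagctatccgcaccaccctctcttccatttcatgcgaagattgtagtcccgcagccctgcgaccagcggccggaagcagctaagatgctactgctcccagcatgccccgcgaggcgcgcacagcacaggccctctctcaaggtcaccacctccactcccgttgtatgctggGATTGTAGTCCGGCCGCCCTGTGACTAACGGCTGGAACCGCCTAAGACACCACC
LINC02987: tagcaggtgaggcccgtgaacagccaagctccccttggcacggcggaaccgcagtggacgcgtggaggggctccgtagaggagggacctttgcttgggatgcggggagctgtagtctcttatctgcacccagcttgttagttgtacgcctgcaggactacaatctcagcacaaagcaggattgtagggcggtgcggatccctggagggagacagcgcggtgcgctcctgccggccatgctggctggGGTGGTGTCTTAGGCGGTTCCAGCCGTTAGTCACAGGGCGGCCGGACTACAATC

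Promoters are shown next for the first 3 members in each direction of the naming rule after knock-down that could be shown. Members with no listed window, or with one not shown here, were passed over. The windows are therefore not all those of the largest changes: LINC01588 ranked 4 among the fallen, and LINC01012 and LINC01547 ranked 9 and 11 among the risen. Capitals mark matches to the 5 motifs listed above. Of the 3 that fell, LINC00513 held a TATA box at -240 and an E-box at -77 relative to its start, while LINC01686 and LINC01588 held none of the 5. Their windows are chr7:130913214-130913513 (plus strand), chr1:182614890-182615189 (plus) and chr14:50007471-50007770 (minus, the first of 2 windows).
LINC00513: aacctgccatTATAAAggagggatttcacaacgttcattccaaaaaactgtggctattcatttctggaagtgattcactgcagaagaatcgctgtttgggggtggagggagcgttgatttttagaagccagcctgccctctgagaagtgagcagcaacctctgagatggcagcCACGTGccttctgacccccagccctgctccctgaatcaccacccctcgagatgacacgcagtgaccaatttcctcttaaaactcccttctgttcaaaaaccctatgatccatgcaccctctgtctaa
LINC01686: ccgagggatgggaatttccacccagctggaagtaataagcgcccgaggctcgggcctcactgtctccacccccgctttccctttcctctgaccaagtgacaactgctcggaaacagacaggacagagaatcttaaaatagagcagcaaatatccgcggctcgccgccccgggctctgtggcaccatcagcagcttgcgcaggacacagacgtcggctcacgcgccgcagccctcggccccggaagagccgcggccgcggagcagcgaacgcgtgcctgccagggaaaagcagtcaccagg
LINC01588: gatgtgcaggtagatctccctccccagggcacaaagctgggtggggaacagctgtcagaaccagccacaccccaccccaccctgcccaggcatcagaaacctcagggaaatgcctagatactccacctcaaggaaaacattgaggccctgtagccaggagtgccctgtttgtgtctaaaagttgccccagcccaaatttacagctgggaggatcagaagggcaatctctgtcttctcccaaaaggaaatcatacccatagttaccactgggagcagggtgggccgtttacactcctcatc

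Of the 3 that rose, none of the windows held one of the 5 motifs. They are chr16:54270830-54271129 (minus strand) for LINC02169, chr6:27693785-27694084 (plus, the first of 2 windows) for LINC01012 and chr21:44939864-44940163 (minus) for LINC01547. The windows differ in composition, with 3, 11 and 42 CG dinucleotides, against 26 at LINC01686 and 1 at LINC01588. LINC01547 starts 116 bases from SLX9 on the other strand, in a head-to-head arrangement. SLX9 had a log2 fold change of -0.01 (adjusted p 0.952).
LINC02169: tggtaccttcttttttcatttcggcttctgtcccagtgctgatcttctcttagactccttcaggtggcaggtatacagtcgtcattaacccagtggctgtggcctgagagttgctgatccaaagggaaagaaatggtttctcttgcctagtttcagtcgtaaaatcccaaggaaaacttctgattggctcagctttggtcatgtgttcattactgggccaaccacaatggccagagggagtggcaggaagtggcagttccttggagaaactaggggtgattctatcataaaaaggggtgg
LINC01012: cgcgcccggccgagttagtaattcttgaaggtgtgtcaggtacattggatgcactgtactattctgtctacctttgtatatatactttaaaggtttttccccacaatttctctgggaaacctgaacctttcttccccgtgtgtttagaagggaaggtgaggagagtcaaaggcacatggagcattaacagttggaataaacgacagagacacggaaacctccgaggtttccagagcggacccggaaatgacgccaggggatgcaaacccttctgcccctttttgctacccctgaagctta
LINC01547: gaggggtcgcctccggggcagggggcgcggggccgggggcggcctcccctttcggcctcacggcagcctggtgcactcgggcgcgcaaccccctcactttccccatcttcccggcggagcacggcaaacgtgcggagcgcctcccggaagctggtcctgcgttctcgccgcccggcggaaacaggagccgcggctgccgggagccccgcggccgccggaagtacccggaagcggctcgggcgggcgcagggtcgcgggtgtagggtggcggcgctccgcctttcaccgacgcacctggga

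Neighbouring genes were compared because some LINC RNAs act close to where they are made. For the 20 members that rose, the nearest protein-coding gene was tested in 15 cases, of which 5 were higher, 2 lower and 8 not called, where 15.5% of all genes were higher and 16.9% lower. For the 21 that fell it was tested in 12, of which 4 were lower, 2 higher and 6 not called. The nearest gene was counted at any distance, as with UQCRFS1, 1411380 bases from LINC00662 and 1180351 from LINC02987. RGS16, a regulator of G-protein signalling 10751 bases from LINC01686, fell with it, from 101 ± 23.5 to 19.4 ± 1.77 CPM (log2 fold change -2.38, adjusted p 3.94e-04). CD177, a neutrophil surface protein encoded 22178 bases from LINC03078, was at 0 in shCONTROL and held 74, 67 and 63 counts in shBCLAF1, at least 21.1-fold higher against the floor. CADM1, the nearest coding gene to the fallen LINC00900 but 250916 bases away, rose instead (0.86, adjusted p 5.02e-04). Across members Spearman's rho between their log2 fold change and that of the nearest coding gene was 0.10 within 5 kb (n = 22) and 0.26 beyond it (n = 70), and -0.68 where the spans overlap (n = 7). All points come from the same 6 libraries and some share a coding gene, so these values are a description.

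**Figure D3:**
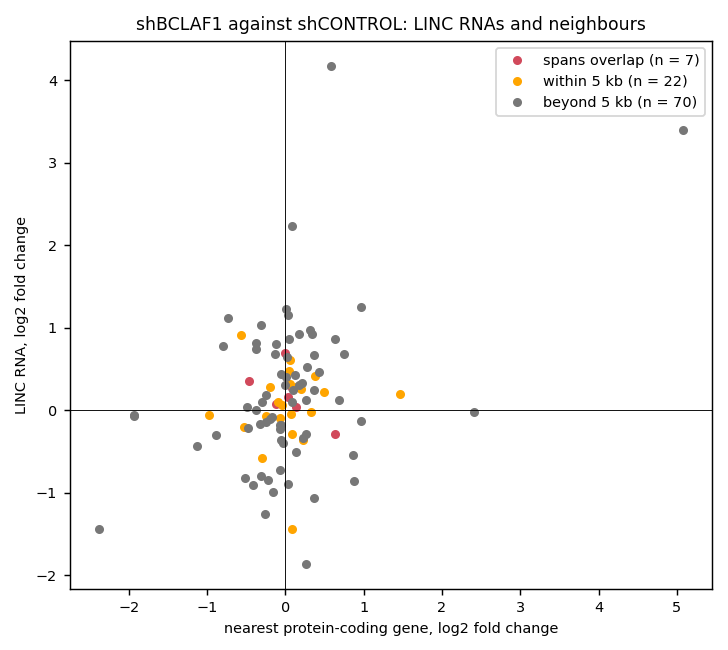
Log2 fold change after knock-down of each LINC RNA (y axis) against that of its nearest protein-coding gene (x axis), coloured by whether the spans overlap (n = 7), lie within 5 kb (n = 22) or farther (n = 70). The points scatter around 0 on both axes. The point at the far right is LINC03078 with CD177, whose fitted change is no bound, and the point at the far left is LINC01686 with RGS16.

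The second comparison asks which LINC RNAs came down with BCLAF1 more than their RNA-seq level would give. Among called members above 0 in all 6 libraries, LINC01128, LINC00467 and LINC02863 were recovered most above it, and LINC00342 and LINC02912 most below it. A member was called enriched or depleted at an adjusted p under 0.05 and a change of 1 or more in size on the log2 scale. Of 143 members tested, 20 were enriched and 12 depleted, or 14% and 8.39%, where 11.0% and 13.5% of all 16727 genes were (24.5% in either direction). By adjusted p alone 54 members passed, 28 above and 26 below, against 8231 of all genes, 4107 above and 4124 below. Without the minimum the 2 directions were thus near even among the members. Their median log2 fold change was 0.18, against -0.05 over all genes. With library totals in place of TMM scaling the median of all genes went from -0.05 to -0.17, and 15 members were enriched and 14 depleted, so the balance of the directions depended on the scaling. The 106 members with no 0 included 18 of the enriched and 8 of the depleted. The 131 with a mean of 20 in shCONTROL alone included 18 and 12, a choice that bears on the enriched members and cannot check the depleted ones. With no mock precipitation, bound RNA and RNA carried along by the procedure cannot be told apart.

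LINC01128 (ENSG00000228794; chr1:827591-859446) held 4.87, 5.8 and 5.39 CPM in shCONTROL and 36.8, 43.5 and 40.8 in the RIP. The RIP libraries were close to one another and well above the RNA-seq, and the log2 ratio of the means as fitted was 2.89 (SE 0.12, adjusted p 1.50e-04), and 2.83 to 2.96 with 1 library left out. After knock-down it held 7.65 and 6.71 CPM in shBCLAF1 replicates 1 and 2 but 0.954 in replicate 3, and was not called (adjusted p 0.955). LINC00467 held 5.47, 3.96 and 3.26 CPM in the RIP (log2 fold change 2.08, SE 0.28, adjusted p 0.00168) against the 0.793 to 1.07 given above. LINC02863, near the carnitine transporter gene SLC22A5, held 2.66, 4.11 and 3.28 CPM in shCONTROL and 12.3, 12.4 and 13.1 in the RIP (1.89, SE 0.19, adjusted p 6.59e-04). For these 3 the stricter test, whether the change exceeds 1, was passed too.

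A further set was enriched more moderately. LINC01572 held 13.3, 14.1 and 13 CPM in shCONTROL and 33.7, 29.5 and 39 in the RIP (log2 fold change 1.33, SE 0.12, adjusted p 5.58e-04), and also passed the test against 1. LINC03015 went from 7.93 ± 0.597 to 19.3 ± 2.01 CPM (1.27, adjusted p 6.54e-04), LINC01588 from 6.27 ± 1.29 to 14.3 ± 0.201 (1.18, adjusted p 0.00217) and LINC01686 from 2.32 ± 0.413 to 5.7 ± 1.05 (1.27, adjusted p 0.00499). LINC02768 and LINC03023 had log2 fold changes of 1.40 and 1.49 (adjusted p 0.00663 and 0.0103). None of these lost its call when 1 library was left out. For LINC00235 (1.32, adjusted p 0.00937) the change was 0.99 without RIP replicate 3, and for LINC00680 (1.15, adjusted p 0.00444) it was 0.90 without RIP replicate 2, under the minimum in both cases. The libraries concerned stood above the other 2: LINC00235 held 6.33, 7.53 and 12.4 CPM in the RIP and LINC00680 held 32, 47.8 and 30.8. LINC02422, LINC02724, LINC02361 and LINC03108 were enriched by less, from 1.13 to 1.03 on the log2 scale. Each fell under the minimum when 1 library was left out: LINC02422 without RIP replicate 1 (0.97) or shCONTROL replicate 1 (0.96), and LINC02724 without RIP replicate 3 (0.97). For LINC02361 this was RIP replicate 2 (0.98) or shCONTROL replicate 1 (0.99), and for LINC03108 the same libraries (0.98 and 0.95). With shCONTROL and shBCLAF1 averaged as the reference, LINC02422 (0.98), LINC02724 (0.88) and LINC02361 (0.89) were under the minimum too.

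LINC01144 (chr1:45303910-45305619) and LINC03019 were off in shCONTROL. LINC01144 was at 0 in all 6 RNA-seq libraries and held 44, 52 and 99 counts in the RIP. LINC03019 held 32, 51 and 52 counts in the RIP. Against the floor they were at least 27.2-fold and 18.9-fold higher, if the zeros stand for 3 counts or fewer. Both reached the mean of 20 through groups other than shCONTROL, so their enrichment was set by the choice of members and is a description. LINC02067 looked alike, with 80, 117 and 348 counts in the RIP, but had 39 in shCONTROL replicate 3 and did not pass (adjusted p 0.0817).

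Among the depleted, LINC00342 (log2 fold change -2.03, SE 0.26, adjusted p 0.00151) held 53.3, 57.7 and 56.9 CPM in shCONTROL and 16.6, 15.9 and 8.57 in the RIP. LINC02912, whose nearest coding gene is MYC at 203608 bases, went from 13.7 ± 1.77 to 4.83 ± 1.75 CPM (-1.49, adjusted p 0.0071). LINC01388 went from 6.57 ± 0.595 to 2.68 ± 0.457 (-1.28, adjusted p 0.00297), LINC00900 from 20.6 ± 1.14 to 8.52 ± 1.35 (-1.27, adjusted p 0.00113) and LINC01709 from 30.9 ± 2.08 to 14.3 ± 2.86 (-1.12, adjusted p 0.00223). LINC01003 went from 4.85 ± 0.14 to 2.23 ± 0.476 CPM (-1.11, adjusted p 0.00606). The calls of these 6 held in every fit that left out 1 library. LINC02169 (-1.30, adjusted p 0.0142) was not called when shCONTROL replicate 1 (0.0602) or 3 (0.0583) was left out. LINC00662, at 57.5, 56.3 and 44.6 CPM in the RIP (-1.03, adjusted p 0.00108), had a change of -0.92 without RIP replicate 3, under the minimum. With shCONTROL and shBCLAF1 averaged as the reference, LINC00662 (-0.50), LINC00900 (-0.99) and LINC01709 (-0.80) were under the minimum too.

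LINC01293, LINC02210 and LINC02766 were at 0 in all RIP libraries. Against the floor they were at least 21.7-fold, 13.2-fold and 12.7-fold lower, if these zeros stand for 3 counts or fewer. LINC01293 held 73, 83 and 93 counts in shCONTROL. LINC02766 and LINC02210 held 0, 0 and 38 counts and 0, 0 and 39 counts in shBCLAF1 replicates 1, 2 and 3. Neither was called after knock-down (adjusted p 0.349 for both). LINC01293, LINC02766 and LINC02210 all reached the mean of 20 only through the RNA-seq libraries where they are high, so their depletion is a description. LINC02766 and LINC02210 also lost their RIP call against the averaged RNA-seq reference (adjusted p 0.0527 and 0.0532). LINC00513, outside the naming rule because of a 0, held 19, 34 and 0 counts in the RIP (-3.59, SE 1.06, adjusted p 0.0291). It lost its call without RIP replicate 1 (0.0714) and without shCONTROL replicate 1 (0.0755), 2 (0.082) or 3 (0.0801).

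**Figure D4:**
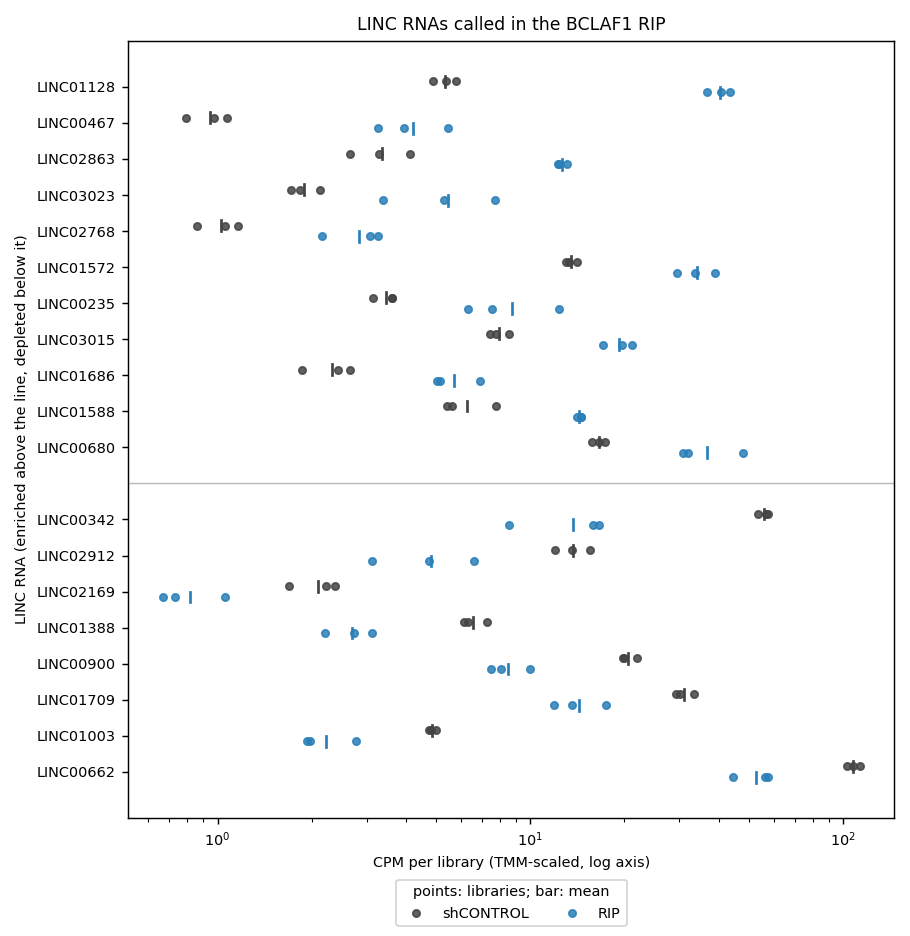
CPM in each shCONTROL (grey) and RIP (blue) library, on a log axis, for 11 enriched and 8 depleted LINC RNAs with the largest changes among those above 0 in all 6 libraries. Points are single libraries and short bars are group means. LINC01128 shows the widest gap, with all RIP libraries at 36.8 CPM or more and all shCONTROL libraries at 5.8 or less.

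Promoters of the RIP members are shown by the same rule, so that the sequences of enriched and depleted RNAs can be read side by side. LINC02863, LINC02768 and LINC01572 were enriched and LINC01388 and LINC00900 depleted, while LINC02169, also depleted, is printed above. LINC02863 held an ATF4 element at -69 from its start and LINC01388 a PU.1 core at -144, both marked by capitals. The windows of LINC02768, LINC01572 and LINC00900 held none of the 5 motifs. They lie at chr5:132427368-132427667, chr1:235972462-235972761, chr16:72664921-72665220, chr9:113746-114045 and chr11:115760151-115760450, all on the minus strand, with 3, 4, 24, 47 and 24 CG dinucleotides.
LINC02863: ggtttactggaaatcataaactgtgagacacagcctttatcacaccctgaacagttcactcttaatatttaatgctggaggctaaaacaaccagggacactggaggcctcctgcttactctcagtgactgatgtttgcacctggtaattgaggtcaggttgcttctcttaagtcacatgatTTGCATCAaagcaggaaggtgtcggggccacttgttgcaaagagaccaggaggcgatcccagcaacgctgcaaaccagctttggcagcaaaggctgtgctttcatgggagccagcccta
LINC02768: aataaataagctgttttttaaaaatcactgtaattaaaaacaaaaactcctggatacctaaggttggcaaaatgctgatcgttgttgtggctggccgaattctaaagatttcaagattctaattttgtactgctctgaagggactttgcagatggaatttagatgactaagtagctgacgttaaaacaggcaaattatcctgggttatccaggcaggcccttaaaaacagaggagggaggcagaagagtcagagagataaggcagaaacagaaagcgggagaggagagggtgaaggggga
LINC01572: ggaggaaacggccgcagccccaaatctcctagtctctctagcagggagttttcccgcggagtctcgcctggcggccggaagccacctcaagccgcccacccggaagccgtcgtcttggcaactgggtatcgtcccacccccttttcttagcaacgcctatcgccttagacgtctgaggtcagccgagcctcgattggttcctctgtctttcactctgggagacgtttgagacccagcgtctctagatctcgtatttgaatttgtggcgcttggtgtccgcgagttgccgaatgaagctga
LINC01388: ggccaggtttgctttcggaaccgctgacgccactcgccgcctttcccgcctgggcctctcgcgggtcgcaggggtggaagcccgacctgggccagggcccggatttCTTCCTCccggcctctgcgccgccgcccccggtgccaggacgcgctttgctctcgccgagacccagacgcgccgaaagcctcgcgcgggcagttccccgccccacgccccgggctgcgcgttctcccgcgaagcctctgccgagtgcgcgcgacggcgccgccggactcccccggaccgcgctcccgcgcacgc
LINC00900: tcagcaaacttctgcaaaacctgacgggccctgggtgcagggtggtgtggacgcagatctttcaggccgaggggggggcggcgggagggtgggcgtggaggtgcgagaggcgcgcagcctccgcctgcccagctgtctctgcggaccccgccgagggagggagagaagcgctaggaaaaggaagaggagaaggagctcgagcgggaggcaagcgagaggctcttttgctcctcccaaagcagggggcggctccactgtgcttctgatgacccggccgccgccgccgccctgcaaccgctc

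Both comparisons use the same shCONTROL libraries, so a high or low value there enters both, and their values are set side by side without a test. LINC00662 had log2 fold changes of -1.06 after knock-down and -1.03 in the RIP, LINC00900 of -0.54 and -1.27, and LINC01709 of -0.62 and -1.12. LINC01480 had 0.97 and 1.03. Others had opposite signs: LINC01686 had -1.44 and 1.27, LINC02970 -0.80 and 1.01, and LINC01572 -0.43 and 1.33. LINC02970, at 11.1 ± 1.47 CPM in shCONTROL and 22.5 ± 2.4 in the RIP, was only just above the minimum in the RIP. Its change was 0.94 and 0.98 without shCONTROL replicates 1 and 3 and 0.91 without RIP replicate 2. LINC01480 likewise had 0.96 in the RIP without shCONTROL replicate 1 and 0.89 without RIP replicate 1, and 0.56 against the averaged RNA-seq reference.

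**Figure D5:**
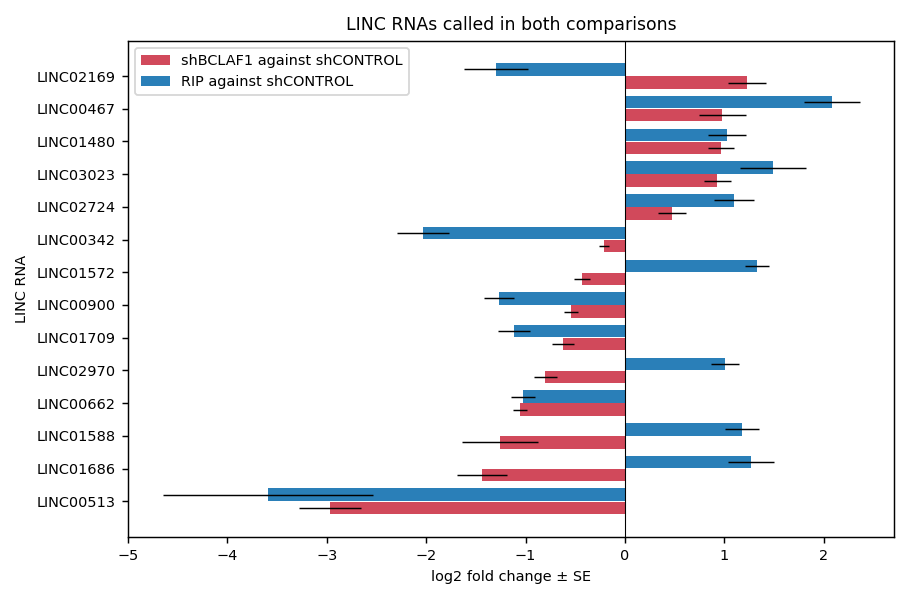
Log2 fold change with its standard error (x axis) after knock-down (red) and in the RIP (blue) for LINC RNAs called in both comparisons and off in neither group. Both bars of a row share the shCONTROL libraries. LINC01686, LINC01588, LINC02970 and LINC01572 have a negative red and a positive blue bar, and LINC02169 the reverse.

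Other long noncoding RNAs with the same mean of at least 20 counts are given for comparison, with no test of any difference. After knock-down, 22.2% of 441 antisense RNAs, 15.3% of 163 divergent transcripts, 41.2% of 51 small RNA host genes and 22.5% of 71 genes that once had a LINC number were called, against 29.3% of the LINC RNAs. In the RIP, 6.35% of antisense RNAs, 20.7% of divergent transcripts, 13.7% of host genes and 15.1% of renamed LINC genes were enriched, against 14% of the LINC RNAs. Depleted were 11.6%, 4.27%, 5.88% and 8.22%, against 8.39%. The median RIP log2 fold changes were -0.21, 0.42, -0.23 and -0.07 for these classes. Of the 2083 numbered LINC genes under a mean of 20, 20 could be tested after knock-down and 21 in the RIP, with 3 and 5 called.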

How the data were processed

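RNA from 9 libraries was analysed (3 shCONTROL, 3 shBCLAF1, 3 RIP). Estimated counts, as whole numbers without scaling, were deposited by the authors in 1 table of genes. STAR 2.7.11b, StringTie 2.2.3 and the build hg38 are named in the submitters' processing notes, and annotation and strand setting are not given in the sources used here. An entry that names no gene, with 0% to 3.75% of the counts, was left out. Each comparison was fitted on its 6 libraries with edgeR 4.0.16 in R 4.3.3 (filterByExpr, TMM, prior count of 2, quasi-likelihood F-test, group as the only term), and p-values were adjusted by Benjamini-Hochberg over all genes tested, at 0.05. CPM were scaled by TMM over all 9 libraries. Off means at most 3 counts in all 3 libraries of a group, where a bound against that floor replaces the fitted change. The bound covers counting error and does not hold where a 0 stands for an RNA that was present at more than 3 counts. The code was tested on simulated data with an assumed spread that was not taken from these libraries. There it recovered 63 of 100 2-fold changes in the knock-down setting and 21 of 100 in the RIP setting. For 4-fold changes it recovered 100 and 89 of 100. A member that was not called may still have changed. Alternatives used DESeq2 1.42.0, other scalings, filters, memberships and fits with 1 library left out.

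By the naming rule the text gives the 8 members with most counts in shCONTROL, up to 12 called members per direction and comparison above 0 in all 6 libraries, those off in 1 group, up to 8 called in both, 4 called in neither, and those with 0 beside 100 counts. The rule also required the 2 groups of a called member to lie apart, which held for every member called. Members named outside the rule were chosen after their values were seen. One enriched member on a sex chromosome is counted but not shown. Genes that once had a LINC number were taken from RefSeq synonyms. The members, lists and rules were chosen with earlier results of these data known.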

Additional observations from a re-analysis of the deposited data

How the results depend on the processing

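The number of members higher after knock-down was 20, and it ran from 12 to 17 when 1 library was left out, the lowest without shBCLAF1 replicate 2. For lower members the number was 21, with 18 to 21. In the RIP, 20 were enriched (16 to 23) and 12 depleted (10 to 17). Of the calls, 11 of 20 and 14 of 21 after knock-down and 12 of 20 and 9 of 12 in the RIP were made again in all 6 of those fits. A single fit of all 9 libraries gave 8 higher and 13 lower members after knock-down, and the cause was not tested. A log2 fold change of at least 1 left 3 and 6, and in the RIP a test against 1 left 6 enriched and 4 depleted. DESeq2 gave 23 and 24 after knock-down and 21 and 13 in the RIP, and made all 41 and all 32 calls again. Apart from the replicate block, given next, the other settings stayed within 1.5 times each count, and no called member changed sign in any setting run. For members near the mean of 20, 3 counts are a large part of the value, and the part of sequencing depth was not tested.

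The labels link replicates across groups only by their number and do not say whether those of the same number were prepared together. The correlation of their deviations was 0.0259, 0.0837 and 0.0354 between shCONTROL and shBCLAF1 for replicates 1, 2 and 3, each the highest for that number, and -0.0235, 0.018 and 0.0204 between shCONTROL and the RIP, where this did not hold. With the replicate number as a block, 13 members were higher and 18 lower after knock-down, and 19 were enriched and 10 depleted. The calls lost after knock-down were those of LINC00467, LINC00963, LINC01012, LINC01278, LINC01410, LINC02724, LINC02916, LINC02987, LINC03040 and LINC03078 (adjusted p 0.0561 to 0.0966).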
